A study of Mus musculus with 4 samples.

Results

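The genes described here encode the subunits and activators of the proteasome. They were chosen by name, as every gene of the expression tables whose symbol is Psm followed by a, b, c, d or e and a number, which gave 42 of 11407 genes. Of these, 5 are the immunoproteasome genes Psmb8, Psmb9, Psmb10, Psme1 and Psme2, and 37 are other subunits and activators. The choice by symbol leaves out the assembly chaperones Psmg1 to Psmg4, the inhibitor Psmf1 and the gene copy Psme2b.

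The cells were live CD45+ leukocytes sorted from mouse mammary tumours. One group received control plasmid and the other a plasmid encoding interleukin-12 (IL-12), in both cases injected into the tumour and followed by electroporation. Cells of 3 mice were pooled for each treatment before 1 library of transcript 5′ ends was made from each pool. The mice therefore cannot be told apart, and the comparison has 1 library per group and no replicate check. The sources differ on the tumour model. The series describes triple-negative breast tumours, the deposited tables carry the name 4T1, a transplantable mammary carcinoma line, and the growth protocol describes HER2 induced in the mammary tissue of mice 1 month old.

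The control library held 4232 cells and 17306854 transcript molecules counted by unique molecular identifier (UMI), with a median of 3021 per cell. The IL-12 library held 12979 cells and 59956933 UMIs, with a median of 3418 per cell, and 87 cell barcodes occurred in both. Cell classes and the 14 clusters are the authors' own. Neutrophils made up 64.3% of control and 45.5% of IL-12 cells, and CD8 T cells 15.3% and 25.1%. The class that the authors called B cells is given here as cluster 13, because 2 B cell and 2 mast cell markers stood among its 10 leading genes. Cells that the authors called dendritic cells numbered 14 in the control library, where 1 of 6 dendritic cell markers had a UMI, and were not compared. Levels are given as CPM, the UMIs of a gene over all UMIs of the cells named, scaled to 1e6. Intervals in brackets are exact 95% intervals and cover counting error only, not differences between mice or libraries.

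The proteasome degrades ubiquitin-tagged proteins. Its 20S core is built of alpha rings and beta rings, and the catalytic sites sit on the beta subunits encoded by Psmb5 (chymotrypsin-like activity), Psmb6 (caspase-like activity) and Psmb7 (trypsin-like activity). In leukocytes, and in other cells exposed to interferon gamma, newly made cores can take up the immunosubunits Psmb8 (LMP7), Psmb9 (LMP2) and Psmb10 (MECL-1) in place of Psmb5, Psmb6 and Psmb7. Psme1 and Psme2 encode the alpha and beta subunits of the PA28 activator, which opens the core. The peptides made are loaded on MHC class I molecules for CD8 T cells, and IL-12 is known to stimulate interferon gamma production by T cells and natural killer cells.

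Psmb8 and Psmb9 lie in the MHC region beside the genes of the peptide transporter TAP. In GRCm38 with the GENCODE M21 annotation, Psmb9 spans chr17:34181987-34187764 on the minus strand, Tap1 chr17:34187553-34197225 on the plus strand, Psmb8 chr17:34197721-34201454 on the plus strand and Tap2 chr17:34203527-34216321 on the plus strand, so that Psmb9 and Tap1 overlap at their 5′ ends. Psme1 (chr14:55578123-55581529, plus strand) and Psme2 (chr14:55587441-55591113, minus strand) are neighbours, and Psmb10 lies at chr8:105935735-105938444 on the minus strand. All 42 symbols were found in the annotation, and 21 had another annotated gene overlapping them. How strand was handled in counting: not given in the sources used here.

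Promoter windows of 300 bases, from 250 before to 50 after the RefSeq start (GRCm38.p6), matched 35 of the 42 genes, all 5 immunoproteasome genes among them. Both strands were searched for the interferon-gamma-activated site GAS (TTCNNNGAA), an IRF element (GAAA, then 2 bases of any kind, then GAAA), the antioxidant response element core (TGACNNNGC) and the CCAAT box (CCAAT). GAS was found in 8.30% of all 32851 windows, and among the proteasome genes in Psmb8 and Psmd2. The IRF element was found in 3.44% of all windows, and here in Psme1, Psmb3, Psmd4 and Psmd9. The antioxidant core was found in 12.4% of all windows, in none of the 5 immunoproteasome genes and in 6 of 30 others, among them Psmb5 and Psmb6. The CCAAT box was found in 37.4% of all windows, in Psmb9 alone of the 5 and in 12 of the 30. The matches in genes of the catalytic pairs and in Psme1 are shown with their flanks, because these genes carry the contrast described below; capitals mark the match, and positions are counted from the RefSeq start.
Psmb8, GAS, 97 bases before the start, chr17:34198088-34198117, plus strand: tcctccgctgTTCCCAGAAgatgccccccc
Psmb5, antioxidant core, 47 bases before the start, chr14:54618023-54618052, minus strand: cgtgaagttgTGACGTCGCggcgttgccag
Psmb6, antioxidant core, 9 bases before the start, chr11:70525338-70525367, plus strand: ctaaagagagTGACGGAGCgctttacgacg
Psmb9, CCAAT box on the opposite strand, 8 bases before the start, chr17:34187319-34187348, minus strand: gcagccgctgATTGGaaagccgagccccgc
Psme1, IRF element on the opposite strand, 9 bases after the start, chr14:55578493-55578522, plus strand: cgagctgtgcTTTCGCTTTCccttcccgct

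Psme2 has a near-identical copy that bears on its counts. Psme2b is a retrogene of 1 exon at chr11:48945354-48946190 on the minus strand, and its coding sequence of 717 bases is 99.3% identical to that of Psme2, with 5 differing bases. None of the 5 lies in coding bases 1 to 120, read from the GENCODE M21 transcripts.

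In the deposited tables most molecules of this pair stand under the copy. Psme2 had 219 UMIs and Psme2b 5766 in the control library, and 1289 and 31667 in the IL-12 library, so that Psme2 held 3.66% and 3.91% of the pair. The level of Psme2 is therefore uncertain, and its ratio is given below also for both genes together. Over members, 3 shared 20% or more of their 60-base transcript stretches with another gene: Psmb5 (46.8%, mostly with Gm3375), Psma5 (43.2%, with Gm8394 and Gm12989) and Psme2 (25.8%, with Psme2b). Their levels are uncertain for that reason.

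In all sorted cells, every immunoproteasome gene was higher after IL-12 plasmid. Psmb8 was at 276.9 CPM in control and 624.8 CPM in IL-12 cells, 2.26-fold higher (2.19 to 2.33). Psme1 went from 112.6 to 218.1 CPM, 1.94-fold higher (1.85 to 2.03). Psmb10 was 1.67-fold higher (81.1 and 135.8 CPM), Psmb9 1.63-fold (182.2 and 296.2 CPM) and Psme2 1.70-fold (12.7 and 21.5 CPM). Counted together with Psme2b, Psme2 stood at 345.8 and 549.7 CPM, 1.59-fold higher (1.55 to 1.63). All 5 passed a 1.5-fold difference, against 14.4% of the 5366 genes measured in these cells. To be measured, a gene needed 50 UMIs over both libraries and detection in 5% of the cells of one of them. A gene could therefore be measured through 1 library alone, the one in which it was higher. The median log2 ratio of IL-12 to control (of CPM plus 1) was 0.74 for the 5 genes and -0.11 for all measured genes.

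Among the other subunits a smaller part passed. Of the 37, 36 were measured: 15 were 1.5-fold or more higher, none was 1.5-fold or more lower (24.3% of all measured genes were), and their median log2 ratio was 0.51. The testis-associated alpha subunit Psma8, with 8 and 21 UMIs, was not measured. Of the 7 constitutive beta subunits, 5 passed 1.5-fold, led by Psmb2 (1.99-fold) and Psmb1 (1.96-fold), while Psmb4 (1.26-fold) and Psmb5 (1.16-fold) did not, and Psmb5 was at -0.02 on the log2 scale once the class shares were made equal. Of the 7 alpha subunits measured, 3 passed, with Psma5 highest at 2.44-fold (2.20 to 2.71; 23.5 and 57.4 CPM). The 19S cap, which binds, unfolds and feeds in substrates, split by part: 4 of its 6 ATPase genes passed, from Psmc3 and Psmc4 at 1.77-fold to Psmc1 at 1.09-fold, but 3 of its 14 non-ATPase genes, with Psmd8 at 1.64-fold and the lid subunit Psmd11 at 0.98-fold. The median log2 ratio was 0.62 for the ATPases and 0.45 for the non-ATPase genes.

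The remaining activators did not pass 1.5-fold in either direction. Psme4 encodes PA200, which caps nuclear proteasomes, and was at 24.8 CPM in control and 18.3 CPM in IL-12 cells, 0.74-fold (0.66 to 0.82). Psme3 encodes PA28 gamma, also nuclear, and was at 33.1 and 30.5 CPM, with an interval that reached 1 (0.84 to 1.01).

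**Figure D1:**
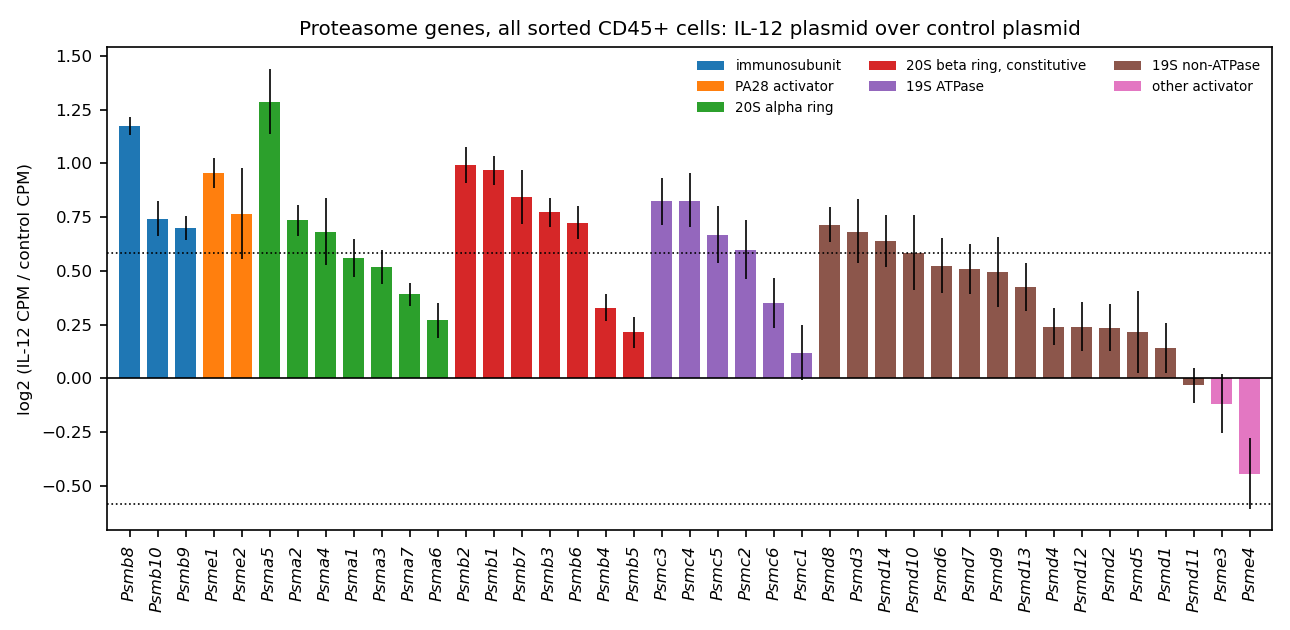
Log2 ratio of CPM, IL-12 over control, for the 41 measured proteasome genes in all sorted cells, grouped by role (colours), with 95% counting intervals; dotted lines mark 1.5-fold. All 5 immunoproteasome genes lie above the upper line, Psmb5 lies lowest among the constitutive beta subunits, and Psme4 is lowest of all at -0.42 on the log2 scale of CPM plus 1.

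The classes differed in their proteasome level as well as in their share of the cells. The other subunits summed to 1171 CPM in control neutrophils, 3554 CPM in control macrophages and 3023 CPM in control CD8 T cells. With the classes of the IL-12 library given the weights they had among control cells, the median log2 ratio of the 5 immunoproteasome genes was 0.67 and that of the other subunits 0.33, and 11 members in place of 20 passed 1.5-fold. The share of all genes past 1.5-fold under these weights was not computed, so the count of 11 has no background beside it. In sums over all sorted cells, a change in the number of cells and one in the RNA of each cell cannot be told apart. Without neutrophils the medians were 0.74 and 0.30.

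The authors' class names were set beside marker levels. Neutrophil markers summed to 125347 and 96449 CPM in neutrophils, against 8472 and 7739 CPM in macrophages and 6883 and 10054 CPM in CD8 T cells. The class that the authors called CD4 T cells held more cells with Cd8a than with Cd4. Cd4 was found in 17.3% of its control and 11.4% of its IL-12 cells, and Cd8a in 45.8% and 51.4%, at 428.6 and 490.7 CPM. In the CD8 class Cd8a was found in 76.9% and 88.0% of cells. Other markers on the CD4 list went with the name. Cd4 was at 80.5 and 67.0 CPM in the CD4 class, against 72.8 and 15.6 CPM in the CD8 class. Foxp3 was at 36.2 and 59.8 CPM against 10.8 and 12.6 CPM, and Cd40lg at 14.1 and 17.1 CPM against 7.06 and 2.29 CPM. The name CD4 T cells is kept below only as the authors' label of that class, nearly all of which is cluster 9. Cd4 stood among the 10 leading genes of that cluster.

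Of the 4 classes, neutrophils and macrophages had the widest gap between the medians of the immunoproteasome genes and the other subunits. Different clusters made up the neutrophils on either side: 1260 control cells belonged to cluster 1 and 550 to cluster 4, while 2606 IL-12 cells belonged to cluster 3 and 1912 to cluster 2. In neutrophils (2721 control and 5908 IL-12 cells), Psmb8 was at 170.4 and 301.9 CPM, 1.77-fold higher (1.67 to 1.88). Psmb9 was at 183.1 and 279.0 CPM, 1.52-fold higher (1.44 to 1.61). Psme2 (1.59-fold) and Psme1 (1.52-fold) also passed 1.5-fold, and Psmb10 did not (1.26-fold). This was 4 of 5, against 11.1% of the genes measured in neutrophils, and 3 of 5 with Psme2 counted together with Psme2b (1.47-fold, 1.41 to 1.54). Psme2, on 93 control UMIs, was measured in neutrophils only through the IL-12 library, where it was higher. None of 23 other subunits measured was 1.5-fold higher, and their median log2 ratio was -0.09, beside -0.39 for all measured genes, so that centring on the latter turned it to 0.29. Besides the catalytic partners, given below, those highest were Psmb1 (1.31-fold), Psmd8 (1.29-fold) and Psmd7 (1.28-fold). Those lowest were Psmd11, at 67.9 and 33.5 CPM (2.03-fold lower, 1.81 to 2.28), the ATPase Psmc1 (18.5 and 10.97 CPM, 1.69-fold lower) and Psmd13 (1.33-fold lower); 40.0% of all measured genes were 1.5-fold or more lower in neutrophils. Summed, the 5 immunoproteasome genes had 489 and 775 CPM and the other subunits 1171 and 1148 CPM. The immunoproteasome genes thus made up 29.5% of all proteasome UMIs in control neutrophils and 40.3% in IL-12 neutrophils. Psme2b, at 286.4 and 419.8 CPM in these cells, is in neither sum, and both shares would be higher with it.

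Single neutrophil clusters differed in how many of the immunoproteasome genes passed. In cluster 1, Psme2 alone of the 5 was past 1.5-fold (15.6% of all genes), and counted with Psme2b it was at 1.05-fold (0.88 to 1.25). Psme2 was measured there only through the IL-12 library, on 45 control and 12 IL-12 UMIs. In cluster 2, Psmb8 alone of 4 measured passed (8.68% of all genes), at 1.51-fold. In cluster 7, Psmb8 (1.51-fold) and Psme1 (1.74-fold) of the 5 passed (9.44%). In cluster 14, led by neutrophil granule genes such as Camp, Ngp and Ltf, all 4 measured passed (14.1%), with Psmb8 at 3.11-fold (2.53 to 3.85). The share of the immunoproteasome genes in proteasome UMIs was 33.4% and 33.0% in cluster 1, 29.3% and 35.7% in cluster 2, 29.1% and 38.9% in cluster 7 and 22.9% and 34.4% in cluster 14. It was 46.9% in IL-12 cluster 3, for which the control library had 21 neutrophils. Some other subunits were also past 1.5-fold higher in single clusters, though none was in the class as a whole. They were 7 of 21 in cluster 1 and 7 of 20 in cluster 14. In cluster 2 they were 1 of 19, and in cluster 7 they were 3 of 35. The immunoproteasome median minus theirs, on the log2 scale, was 0.29, 0.56 and 0.59 in clusters 2, 7 and 14. In cluster 1 it was -0.07, with medians of 0.42 and 0.49.

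In macrophages (574 and 1702 cells), Psmb8 was at 284.2 and 606.9 CPM, 2.14-fold higher (2.0 to 2.28). Psme1 and Psmb9 were each 1.76-fold higher, at 157.6 and 277.6 CPM and at 154.1 and 270.6 CPM, Psme2 was 1.51-fold higher and Psmb10 1.47-fold. The median of the 5 was 0.81 on the log2 scale, with 4 past 1.5-fold (10.8% of all measured genes), and that of 36 other subunits 0.22, with 5 past 1.5-fold. Psma5 (42.6 and 85.1 CPM), Psmb2 (129.9 and 207.5 CPM) and Psmc4 (52.2 and 83.7 CPM) were highest among the other subunits, the catalytic partners aside. Psmd5, a chaperone of 19S assembly, was 1.62-fold lower (1.20 to 2.18), Psmc1 1.21-fold lower and Psmd1 1.18-fold lower, where 20.8% of all genes were 1.5-fold or more lower. Psmb5 was at 210.1 and 182.9 CPM, 0.87-fold (0.80 to 0.95), while its partner Psmb8 was higher. Immunoproteasome genes made up 17.5% of proteasome UMIs in control macrophages, the lowest share of any class compared, and 25.0% in IL-12 macrophages.

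In CD8 T cells (649 and 3264 cells), the 5 immunoproteasome genes all passed. Psmb8 was at 464.2 CPM in control and 888.9 CPM in IL-12 cells, 1.91-fold higher (1.83 to 2.01). Psme1 was 1.82-fold higher, Psme2 1.80-fold, Psmb10 1.66-fold and Psmb9 1.59-fold, so that 5 of 5 passed 1.5-fold (12.2% of all measured genes did). Of 36 other subunits, 11 were past 1.5-fold, and the medians were 0.80 and 0.41 beside -0.31 for all genes. Psma5 (2.17-fold), Psmb2 (2.07-fold) and Psmd8 (1.89-fold) were highest. Psmd5 (1.02-fold), Psmd2 (1.01-fold) and Psmd1 (0.87-fold, but 0.12 on the log2 scale once centred on all genes) were lowest, Psme3 and Psme4 aside. Psme4 was at 38.8 and 20.5 CPM, 0.53-fold (0.44 to 0.64), the only one of the 36 past 1.5-fold lower, where 38.0% of all genes were, and Psme3 was at 61.2 and 43.3 CPM, 0.71-fold (0.61 to 0.82).

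Different clusters made up the CD8 class on either side. Among control CD8 T cells, 572 belonged to cluster 8, and among those after IL-12 plasmid 2488 belonged to cluster 5 and 704 to cluster 12. Between control cluster 8 and IL-12 cluster 5, Psmb8 was at 468.3 and 968.9 CPM, 2.07-fold higher (1.96 to 2.18), and all 5 immunoproteasome genes and 15 of 36 others were past 1.5-fold higher (13.1% of all genes), while 1 of the 36 was past 1.5-fold lower (39.4%). Within cluster 8 itself, which had 67 IL-12 cells, Psmb8 was at 468.3 and 647.5 CPM, 1.38-fold higher (1.18 to 1.61). There 1 of the 4 immunoproteasome genes measured, Psme1, passed 1.5-fold (13.2% of all genes), with 8 of 36 other subunits higher and 3 lower (24.6%). Neutrophil markers (6 of 6 with a UMI) summed to 6883 CPM in control and 10054 CPM in IL-12 CD8 T cells, and their level in cluster 12 was 49257 and 37647 CPM. Without clusters 11 and 12 they summed to 1481 and 430 CPM, and Psmb8 there was at 482.9 and 965.5 CPM.

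In CD4 T cells (179 and 998 cells) the medians of the gene groups lay closest. Psmb8 was at 424.6 and 687.8 CPM, 1.62-fold higher (1.40 to 1.88), Psme1 was 1.63-fold higher and Psme2 1.56-fold, on 9 control UMIs, while Psmb9 and Psmb10 (1.44-fold and 1.45-fold) did not reach 1.5-fold. Counted with Psme2b, Psme2 was 1.32-fold higher (1.13 to 1.55) and did not pass. That was 3 of 5, or 2 of 5 with the copy, beside 11 of 36 other subunits (15.9% of all genes), with medians of 0.61 and 0.49. Besides the partner Psmb7 (2.40-fold), the other subunits with the highest ratios were Psmc6 (4.35-fold, 2.06 to 10.99, on 7 control UMIs), Psma5 (2.17-fold) and Psmb2 (2.13-fold), and those with the lowest, Psmb5 (0.98-fold) and the activators aside, were Psmd13 (1.16-fold), Psma4 (1.11-fold) and Psmd9 (0.75-fold). None was 1.5-fold or more lower, beside 16.5% of all genes. Psmc6, on so few control UMIs, was measured only through the IL-12 library.

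Cluster 13 (95 and 267 cells) had the highest median, 1.01 over the 4 immunoproteasome genes measured, all past 1.5-fold (18.8% of all genes). Markers of other cells differed as well: mast cell and basophil markers summed to 5.23 and 3742 CPM, monocyte markers to 59.3 and 316.6 CPM, plasma cell markers to 71.5 and 276.8 CPM and neutrophil markers to 5725 and 1676 CPM, beside 1383 and 1428 CPM of B cell markers. In the class called B cells, which is nearly all of cluster 13, dendritic cell markers summed to 957 and 1464 CPM. Tumour epithelium markers there summed to 511 and 895 CPM, and fibroblast markers to 136.0 and 16.1 CPM. The part of these other cells in the result was not tested. Psmb10 was at 71.5 and 164.7 CPM, 2.30-fold higher (1.66 to 3.27), and Psme1 at 167.5 and 360.8 CPM, 2.15-fold higher (1.74 to 2.70). Psmb8 was 1.88-fold and Psmb9 1.85-fold higher. The other subunits had a median of 0.47, with Psma5 (2.82-fold), Psmb2 (2.09-fold) and Psmd13 (1.87-fold) highest and Psmc1 (0.88-fold), Psmd5 (0.83-fold) and Psmd2 (0.70-fold) lowest but for the activators. Psme4 (48.8 and 20.4 CPM) and Psme3 (62.8 and 34.8 CPM) were both more than 1.5-fold lower, as were 29.0% of all genes.

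**Figure D2:**
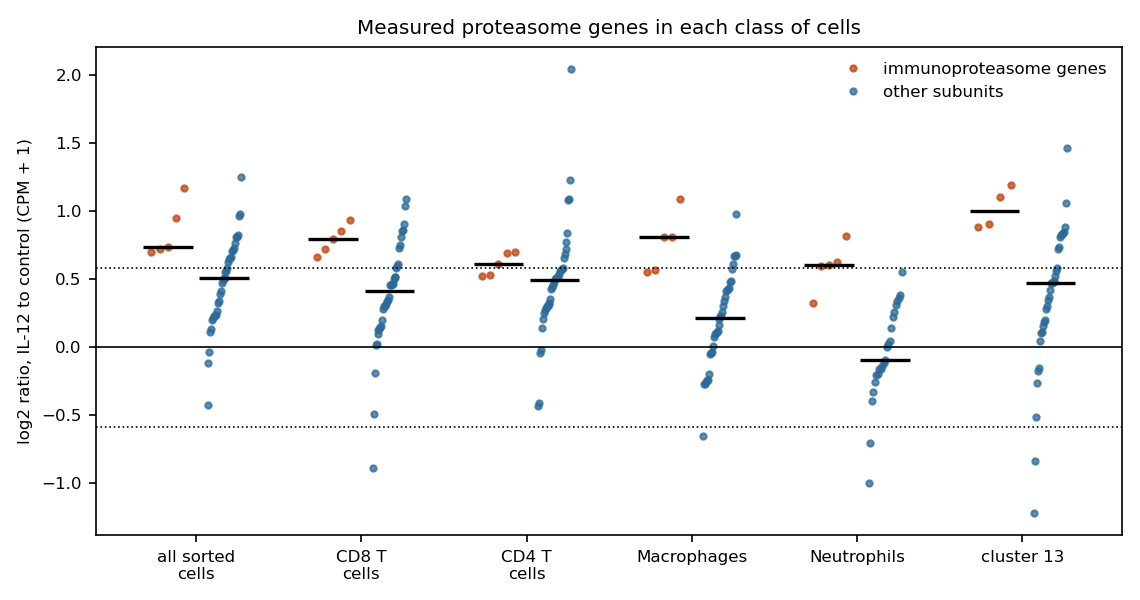
Log2 ratio (CPM plus 1), IL-12 to control, of each measured proteasome gene in all sorted cells, in 4 classes and in cluster 13. Each point is 1 gene, black bars are medians and dotted lines mark 1.5-fold. The medians of immunoproteasome genes and other subunits lie closest in CD4 T cells (0.61 and 0.49) and farthest apart in neutrophils (0.61 and -0.09).

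Markers of CD8 T cells were followed in the other classes, since their level there also differed between the libraries. All 6 markers on the CD8 list had UMIs in neutrophils and in macrophages of both libraries. Their summed level in neutrophils was 53.0 CPM in control and 117.3 CPM in IL-12, which is 1.42% and 2.09% of the level in CD8 T cells. That share of the CD8 level of Psmb8 comes to 6.61 and 18.6 CPM, against the 170.4 and 301.9 CPM measured. In macrophages the markers stood at 2.71% and 8.12% of the CD8 level, which comes to 12.6 and 72.1 CPM of Psmb8, against 284.2 and 606.9 CPM measured. For the 5 immunoproteasome genes summed, the same shares come to 13.04 of 489 CPM and 34.5 of 775 CPM in neutrophils, and to 24.8 of 752 CPM and 133.7 of 1386 CPM in macrophages.

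Across clusters the order of the levels followed both cell type and library. The sums leave out Psme2b, and the order with it was not computed. The 5 immunoproteasome genes summed were highest in IL-12 cluster 5 (CD8 T cells, 1769 CPM), then in IL-12 cluster 13 (1635 CPM), and neither interval overlapped the next. IL-12 clusters 6, 8, 9, 12 and 10 followed between 1397 and 1293 CPM, each overlapping its neighbour in the order. The highest control cluster was cluster 8, at 911 CPM, whose interval overlapped that of IL-12 cluster 7, a neutrophil cluster at 906 CPM. The lowest were control clusters 2 (493 CPM), 4 (379 CPM) and 14 (302 CPM), all neutrophils, again with no overlap. IL-12 cluster 11, called dendritic cells by the authors and led by histone and small noncoding RNA genes, had 1174 CPM.

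Of the 10 clusters with at least 50 cells in both libraries, all 10 had a higher level of Psmb8 in IL-12 cells with an interval above 1, from a log2 ratio of 0.42 in cluster 1 to 1.63 in cluster 14, where it was at 96.0 and 298.9 CPM. For Psmb9 and Psme1 the level was higher in all 10, with an interval above 1 in 8 of them. For Psmb10 it was higher in 9, with an interval above 1 in 5, and cluster 2 was the exception, at 43.5 and 35.7 CPM. The uncertain Psma5 was higher in all 10, from 0.75 to 1.59 on the log2 scale. In all, 7 of the 41 measured members were higher in every one of the 10 clusters, with 20 or more UMIs in each. They were Psmb8, Psmb9, Psme1, Psme2, Psma5, Psmb7 and Psmd8. Of all measured genes, 2.48% were. A gene with fewer UMIs in any cluster could not be counted but stayed in the total. The 2.48% is therefore not a like background for well-detected genes. Psme2 had an interval above 1 in 2 of the 10, and counted with Psme2b it was at 0.98-fold in cluster 8 (0.79 to 1.21), which leaves 6 genes. Psmb5 was higher in 5 of 10 clusters, and in none was its interval above 1. Psme3 and Psme4 were higher in 1 cluster each, with an interval below 1 in 3 each.

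**Figure D3:**
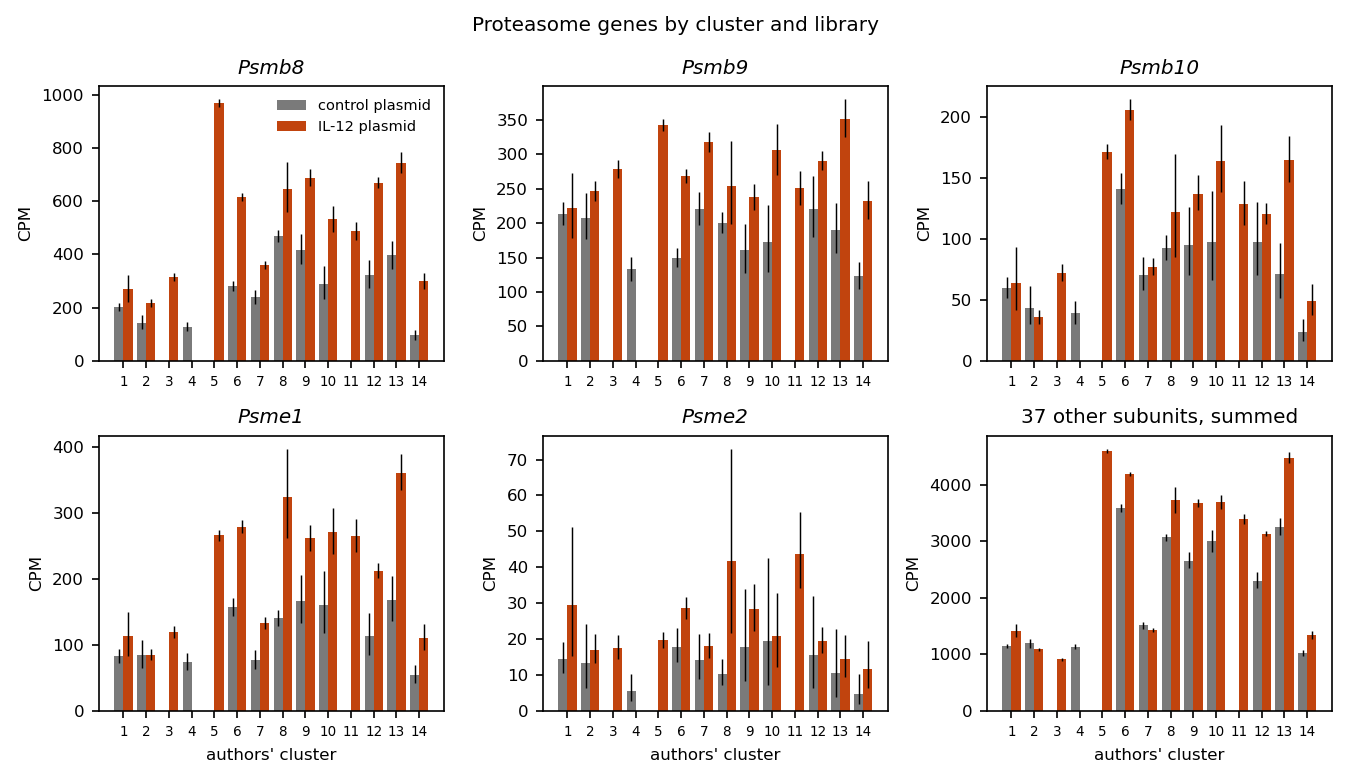
Levels in CPM of the 5 immunoproteasome genes, and of the 37 other subunits summed, by cluster (1 to 14) in control (grey) and IL-12 (orange) cells, with 95% counting intervals; clusters with fewer than 50 cells in a library have no bar. Psmb8 reaches 969 CPM in IL-12 cluster 5, and the other subunits separate the neutrophil clusters 1 to 4, 7 and 14 (909 to 1509 CPM) from the remaining clusters (2302 to 4601 CPM).

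The make-up of the catalytic core was read as the share of Psmb8, Psmb9 and Psmb10 in the UMIs of the 6 catalytic genes, which does not depend on the total of the cell. It counts transcripts, not subunits in assembled cores. The share was 68.8% (68.0 to 69.6) in control and 74.96% (74.7 to 75.3) in all sorted IL-12 cells. It was 55.8% and 68.1% in macrophages, 77.9% and 83.5% in neutrophils, 71.5% and 75.7% in CD8 T cells, 69.4% and 72.8% in CD4 T cells, and 65.0% and 72.5% in cluster 13. Except in CD4 T cells, the interval of the difference stayed above 0. By cluster, IL-12 cluster 3, a neutrophil cluster led by G0s2 and the interferon-stimulated gene Isg15, had the highest share at 87.4%, and control cluster 6 (macrophages) the lowest at 55.2%. The interval of the former overlapped no other, and that of the latter overlapped control cluster 10 (59.7%). Clusters 1 (80.5% and 78.5%) and 8 (71.4% and 70.8%) had no higher share after IL-12 plasmid.

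The measure differed in part once the cells were thinned. Thinning also left out cells below 1000 UMIs and changed the weight of the classes. Neutrophils were 64.3% of control cells but 49.6% of control UMIs. The part of depth alone was not tested. With each cell thinned to 1000 UMIs, so that deep and shallow cells weighed the same, the difference was 3.12 points (1.37 to 4.91) in all sorted cells in place of 6.13, and 0.65 points (-2.75 to 4.24) in CD8 T cells in place of 4.25. In macrophages (11.5 points) and neutrophils (5.22 points) it stayed close to the unthinned 12.3 and 5.61 points. In CD4 T cells it was -0.66 points (-7.44 to 6.94) in place of 3.38. In cluster 13 it was 8.18 points, with an interval that held 0 (-4.44 to 21.8). Median depth was 5794 and 6434 UMIs per cell in CD8 T cells, 5515 and 7211 in macrophages, and 2524 and 2553 in neutrophils.

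**Figure D4:**
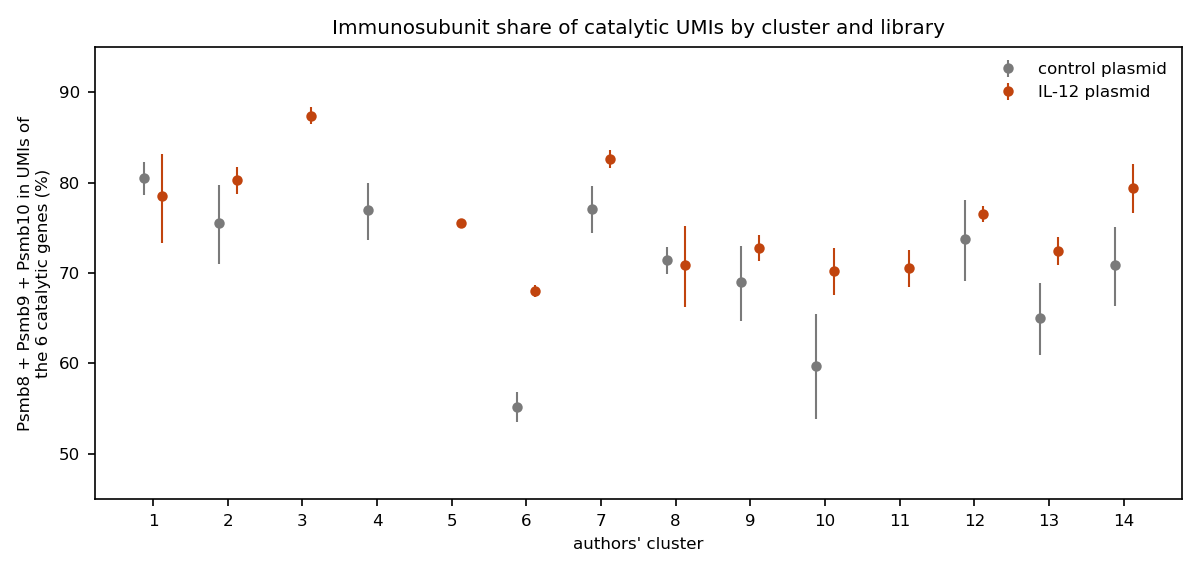
Share (%) of Psmb8, Psmb9 and Psmb10 in the UMIs of the 6 catalytic genes, by cluster, in control (grey) and IL-12 (orange) cells, with exact 95% binomial intervals. The vertical axis starts above 0. Cluster 6 (macrophages) shows 55.2% and 68.0%, and IL-12 cluster 3 stands highest at 87.4%.

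The 3 pairs did not behave alike. The share of Psmb8 in the UMIs of Psmb8 and Psmb5 was 70.8% in control and 82.5% in IL-12 cells, 11.7 points higher (10.5 to 12.8). It was 19.3 points higher in macrophages, 10.2 in neutrophils, 9.21 in cluster 13, 8.86 in CD8 T cells and 8.40 in CD4 T cells, each with an interval above 0. Thinned, the interval stayed above 0 in all sorted cells and every class but CD4 T cells, where the difference was 2.92 points (-5.18 to 12.7). The share of Psmb9 against Psmb6 was 65.6% and 65.3% in all sorted cells, 8.77 points higher in macrophages (5.72 to 11.8), 3.37 points higher in neutrophils (1.42 to 5.39) and -3.19 points in CD8 T cells (-5.96 to -0.35). Thinned, this pair gave -3.95 points in all sorted cells (-6.87 to -0.92) and -9.75 points in CD8 T cells (-16.5 to -2.39). In macrophages it gave 6.27 points, with an interval that held 0 (-2.04 to 14.5), and in neutrophils 3.45 points (0.14 to 6.98). The share of Psmb10 against Psmb7 was 69.7% and 68.2%, with an interval of the difference that held 0 there and in every class.

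The levels of the partners differed in the same comparison. In all sorted cells the partner of Psmb9, Psmb6, was itself 1.65-fold higher (95.4 and 157.5 CPM), and the partner of Psmb10, Psmb7, 1.79-fold higher (35.2 and 63.2 CPM). Psmb5 was 1.16-fold higher (113.9 and 132.2 CPM) beside 2.26-fold for Psmb8. In CD8 T cells Psmb6 was 1.83-fold (105.1 and 192.0 CPM) and Psmb9 1.59-fold higher, and Psmb7 was 1.70-fold and Psmb10 1.66-fold higher. In neutrophils Psmb7 (1.48-fold) stood above Psmb10 (1.26-fold), and Psmb5 was 0.83-fold (47.3 and 39.4 CPM), though 0.13 on the log2 scale once centred on the median of all genes. The pair with the largest difference is also the one whose partner, Psmb5, shares transcript stretches with Gm3375, so the size of that share is uncertain.

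**Figure D5:**
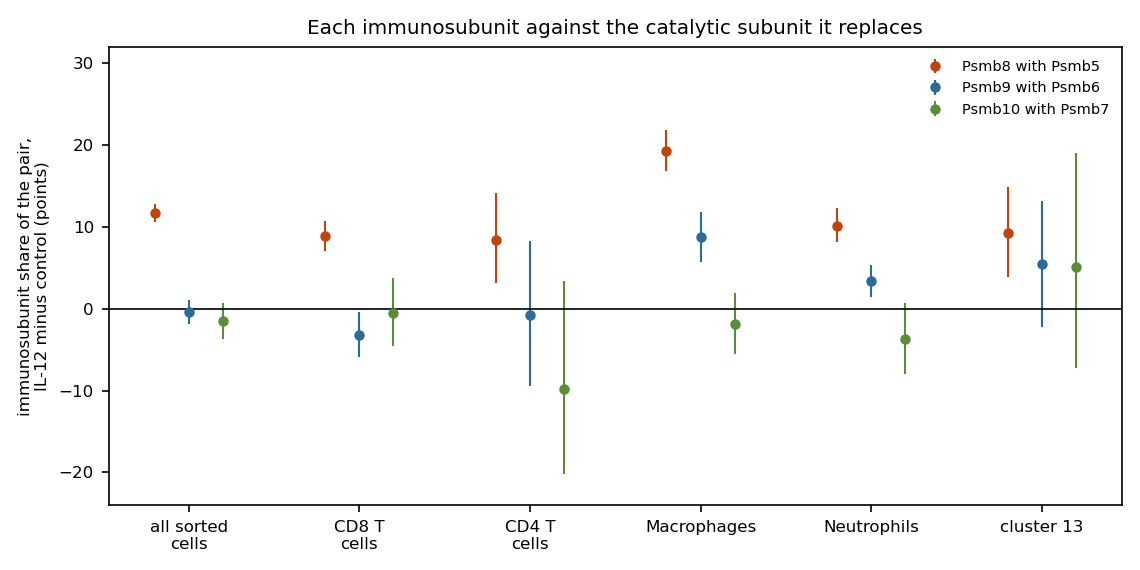
Difference in share, IL-12 minus control in percentage points, of each immunosubunit within its pair, in all sorted cells, 4 classes and cluster 13, with 95% intervals. Psmb8 with Psmb5 lies above 0 throughout (8.40 to 19.3 points), Psmb9 with Psmb6 has an interval above 0 in macrophages and neutrophils (in macrophages it held 0 once cells were thinned), and every interval of Psmb10 with Psmb7 holds 0.

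Cells with a molecule of any of the 5 immunoproteasome genes were counted after thinning each cell to 1000 UMIs. They were 41.6% of 4034 control and 62.0% of 12510 IL-12 cells (198 and 469 shallower cells left out). Psmb8 alone was found in 20.7% and 37.4%, and in 45.9% and 67.6% of cells without thinning. In CD8 T cells any of the 5 was found in 58.4% and 77.7%, in macrophages in 48.4% and 69.7%, and in neutrophils in 35.1% and 48.6%. Psme4 was found in 2.33% and 1.79% of all cells at this depth.

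Along the cell cycle, the CD8 T cells of the receptor table, which carries the authors' phase calls, had nearer levels between phases than between libraries. The immunoproteasome sum in control cells was 871 CPM in G1, 992 CPM in S and 959 CPM in G2M, and in IL-12 cells 1687, 1662 and 1735 CPM. The other subunits ranged from 2973 to 3223 CPM over the phases in control and from 4081 to 4292 CPM in IL-12 cells. The proliferation gene Mki67 over the same phases went from 12.3 to 146.7 CPM in control and from 7.5 to 80.8 CPM in IL-12 cells.

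Other genes of the pathway were followed with 4 lists. Of 12 genes of peptide transport and loading for MHC class I, 5 were 1.5-fold or more higher in all sorted cells and none lower, with a median log2 ratio of 0.18. The class I heavy chain gene H2-K1 (2.30-fold) and B2m, its light chain (2.20-fold), were highest, and the chaperone Canx (0.81-fold) and Tapbp, which encodes tapasin (0.93-fold), lowest. Tap1 and Tap2, which lie beside Psmb9 and Psmb8 in the genome and were singled out for that after their values were seen, were at 185.2 and 172.6 CPM and at 93.8 and 92.0 CPM. Their ratios were 0.93 and 0.98, where Psmb9 and Psmb8 had 1.63 and 2.26. In macrophages Tap1 was 1.46-fold and Tap2 1.31-fold higher, and in neutrophils they were 0.80-fold and 0.86-fold.

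Of 8 genes of the interferon gamma pathway, 1 was 1.5-fold or more higher and 2 lower in all sorted cells. Ifng itself was at 23.7 and 129.1 CPM, 5.45-fold higher (4.93 to 6.03), and Socs1, its feedback inhibitor, was 1.34-fold higher. Ifng was found in 4.89% of control and 15.4% of IL-12 cells, and so was measured through the IL-12 library alone. Jak2 (208.6 and 80.5 CPM, 2.59-fold lower) and the transcription factor Irf1 (159.1 and 89.4 CPM, 1.78-fold lower) were lowest. Of 6 genes on the ubiquitin list, which also holds the interferon-stimulated gene Isg15, 4 were higher and 1 lower. Isg15 (1.998-fold) and Ubb (1.97-fold) led, and Uba1, the ubiquitin-activating enzyme, was 1.73-fold lower.

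Of 11 measured genes for proteasome assembly, inhibitors and associated enzymes, 2 were higher and 3 lower, with a median of 0.19. The inhibitor Psmf1 (1.54-fold) and the deubiquitinase Uchl5 (1.51-fold) were highest. Psmf1 was found in 3.73% of control and 6.44% of IL-12 cells, and so was measured through the IL-12 library alone. Ddi2, a protease that processes the transcription factor NRF1, was 1.82-fold lower (44.4 and 24.4 CPM), and Ecpas, an adaptor of the 26S proteasome, 1.71-fold lower. The third was Nfe2l1, which encodes NRF1, a transcription factor of proteasome genes, at a log2 ratio of -0.65. These lists, like the members, were not tested as sets, and their counts stand beside 14.4% higher and 24.3% lower over all measured genes.

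Over 24 units, each a cluster in 1 library with at least 50 cells, the genes outside the family whose log2 level followed the immunoproteasome sum most closely were Nsa2-ps1, Btf3, Ly6a, Ran, Gtf3a, Rbm3, H2ax, Tcea1-ps1, Tpt1-ps3 and Trmt112-ps2, out of 6623 ranked. Pearson's r ran from 0.948 for Nsa2-ps1 to 0.920 for Trmt112-ps2. Ly6a is an interferon-inducible surface protein of lymphocytes, Ran a nuclear transport GTPase and Btf3 a factor of nascent chains. Psmb8 itself followed the sum, of which it is a part, at 0.987, and Psmb9 at 0.764. Between pairs of proteasome genes the median r was 0.67 over the 10 pairs within the 5, 0.83 over 630 pairs of other subunits and 0.69 over 180 pairs between the groups. These units share 2 libraries and their depths, so r is a description only.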

How the data were processed

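The authors deposited 1 expression matrix per library on a log2 scale, beside their clusters and classes; from the values, it holds log2 of CPM plus 1. The authors' deposited table of T cells with a receptor sequence holds an S and a G2M score and a phase call per cell, of which the calls were used. Per the submitters' processing notes, Cell Ranger 2.1.0, STAR 2.6.1, Partek and mm10 were used; settings: not given in the sources used here. Afterwards the log2 scale was undone, and the smallest value of a cell taken as 1 UMI. All but 6 and 13 of the values above 0 were whole within 0.1. The tables held 72.9% and 70.4% of the UMIs, and CPM uses the full totals.

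UMIs were summed over cells, and ratios given with exact conditional intervals, shares with Clopper-Pearson intervals (Python 3.11.15, scipy 1.17.1). With 1 library per group no test across libraries was possible. UMIs were also simulated with counting (Poisson) error alone, for 6664 genes of at least 500 UMIs, with 200 changed. There 95.1% of intervals held the true ratio of the comparison of all sorted cells. Every gene changed 2-fold or 4-fold either way passed 1.5-fold. Single classes and clusters, and the spread between mice or libraries, were not simulated. Doublets were not called; cells above 10000 UMIs were left out as an alternative.

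The members and the gene lists were chosen with earlier results of these data known. Named with values are the 5 immunoproteasome genes, their 3 partners, Psme3 and Psme4, the 3 highest and 3 lowest other members in each class, the 2 highest and 2 lowest genes per list in all sorted cells, and the 10 genes most like the immunoproteasome sum among those with at least 500 UMIs. Alternatives were other scalings and pseudocounts, no filter, weighting or leaving out classes and clusters, and thinning. Those chosen after seeing the data left out shared barcodes, left out members with copies, added Psme2b to Psme2, or centred ratios on the median of all genes. Sequences are from RefSeq (GRCm38.p6) and GENCODE M21, the build of mm10. Some values and sequences that these rules would name are not reported here.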

Additional observations from a re-analysis of the deposited data

Results flagged for a closer look

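The 19S ATPase gene Psmc1 was the only measured member that passed 1.5-fold in opposite directions in 2 classes. It was higher in CD4 T cells, on 14 control and 112 IL-12 UMIs (log2 ratio 0.58), with an interval of the ratio that held 1 (0.87 to 2.86). It was lower in neutrophils, on 159 and 206 UMIs (log2 ratio -0.71), with an interval of 0.48 to 0.73. In neutrophils it was measured only through the control library, where it was higher. The difference between the classes was not tested.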

How the results depend on the processing

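No paired analysis was possible because each group had 1 expression library. Of 194 values recomputed for the medians, counts and shares, 166 stayed within the counting interval (counts within 1.5 times). Some of them could not move. Adding Psme2b leaves the other subunits' median as it was, and leaving out deep cells left the CD4 share difference at 3.38 points. With IL-12 cells weighted to control class shares, the other subunits' median was 0.33, with 11 members higher and 1 lower; without neutrophils it was 0.30 with 1 lower, and the immunosubunit share differed by 8.78 points. The share difference of 6.13 points was 4.72 without cells above 10000 UMIs and 3.12 with thinned cells. In CD8 T cells thinning gave 0.65, and in macrophages leaving out deep cells gave 14.1. Each pair alone gave, for Psmb8, 11.7 points in all cells, 8.86 in CD8 T cells, 8.40 in CD4 T cells, 19.3 in macrophages and 10.2 in neutrophils. Psmb9 gave -0.36 in all cells, with an interval that held 0 (-1.82 to 1.11), and -3.19 in CD8 T cells (both reversed in sign). It gave 8.77 in macrophages and 3.37 in neutrophils. Psmb10 gave -1.48, -0.50, -1.86 and -3.73 in all cells, CD8 T cells, macrophages and neutrophils (reversed in sign) and -9.76 in CD4 T cells. Each of these Psmb10 differences had an interval that held 0. Centred on the median of all measured genes, the medians were 1.11 and 0.73 in CD8 T cells and 0.99 and 0.29 in neutrophils, and 26 members were higher in all sorted cells. For the counts with weights, without neutrophils and after centring, the share of all genes past 1.5-fold was not computed. Of 832 values for named members, 811 kept their sign and 13 moved by more than 1.5 times, 12 of these under thinning. Many of the 832 could not change sign. Adding Psme2b alters Psme2 alone, and a larger pseudocount cannot turn the sign of a ratio. Apart from what each setting itself changes, the cause of each move was not tested. Depth limits Psme2 in CD4 T cells and cluster 13, on 9 and 6 control UMIs, and Psmc6 in CD4 T cells, on 7.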
